A study of Homo sapiens with 6 samples.

Results

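The ephrin, semaphorin and plexin guidance genes are cell-surface and secreted cues and the receptors that read them. They were taken from the count table by symbol: EPHA and EPHB receptors, EFNA and EFNB ligands, classes 3 to 7 of the semaphorins, all plexins, and NRP1 and NRP2, without antisense genes. This gave 53 of the 27469 genes in the table, namely 14 Eph receptors, 8 ephrins, 20 semaphorins, 9 plexins and 2 neuropilins. They were measured in HMC3, an immortalised human cell line that the labels call microglia, in 3 libraries of cells given interleukin-33 (IL-33, a cytokine of the interleukin-1 family) for 24 h and in 3 Control libraries. The dose of IL-33, what the Control cells received and whether the libraries came from separate cultures are not stated. The p-values set the difference between the groups against the spread of these libraries within a group, and that spread may be technical only. All 6 libraries come from a single line, without other cell types. The comparison of the groups addresses which transcripts differ in HMC3 after IL-33.

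As background, ephrins are membrane-bound ligands of the Eph receptor tyrosine kinases, and a contact between cells can signal into both of them. Ephrin-A ligands are held by a lipid anchor and ephrin-B ligands span the membrane. Semaphorins signal through plexins, whose intracellular part acts on small GTPases and the cytoskeleton. Class 3 semaphorins are secreted and most need a neuropilin to reach a plexin, while classes 4 to 7 are tethered to the membrane and mostly bind plexins directly. These cues steer growing axons, and they also act in vessel growth, immune cell traffic and cell migration.

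No guidance gene passed the test for a difference with IL-33. Of the 53 genes, 37 had enough counts to test, and 0 passed the edgeR quasi-likelihood test at a Benjamini-Hochberg adjusted p of 0.05, where the shares called among all 12125 tested genes were 0% higher and 0% lower. HMC3 carried a small part of the family at moderate levels in both groups: the plexin gene PLXNB2, the ligand genes EFNA5 and EFNB2 and the receptor genes EPHB4 and EPHA2 led, while 16 genes were too low to test and EPHA3 and EPHA8 had 0 counts. EPHA2 was the gene whose level differed most between libraries of the same group among those at 10 CPM or more. CPM (counts for a library of 1e6 after TMM scaling) do not grow with transcript length here, because each transcript is read by a tag near its 3' end. Levels of different genes are set side by side on this scale. Tags outside an annotated gene end are not counted, and how far this differs between genes was not tested.

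The libraries held 9544502, 10217529 and 8294747 counts with IL-33, and 9933395, 8254108 and 5739947 counts in Control. A gene with 0 counts can lie as high as 3 counts, which is between 0.293 and 0.543 CPM depending on the library. This covers counting error only, since PCR reads without molecular identifiers are not independent molecules. Control 3, with the fewest counts, was set apart on the first principal component (35.4% of the variance) at 55.0, with the other 5 libraries between -18.0 and 0.86. Of 12 microglia and macrophage markers, 7 had 0 counts in all libraries (ITGAM, CX3CR1, P2RY12, TMEM119, SPI1, TYROBP and C1QA) and 1, CD68, could be tested, so most defining markers of the labelled cell type were not detected at this depth. The summed level of that list was 2.95 to 5.57 CPM with IL-33 and 3.57 to 5.07 CPM in Control. Of 10 fibroblast and mesenchymal markers 7 were tested, with a summed level of 2365 to 2779 CPM with IL-33 and 2094 to 2781 CPM in Control. VIM reached a mean of 1553 CPM and COL1A1 721 CPM, while COL3A1 and LUM had 0 counts. Neuron markers summed to 29 to 38.5 CPM with IL-33 and 23.8 to 33.3 CPM in Control, with TUBB3 at a mean of 27.0 CPM. Of the untested neuron markers, STMN2 had 0 counts, and MAP2, RBFOX3 and SYT1 had 8, 11 and 20 counts over all libraries. SNAP25, the other tested neuron marker, measured 3.62, 4.79 and 3.42 CPM in IL-33 1, 2 and 3, and 2.48, 2.16 and 1.27 CPM in Control 1, 2 and 3. Its IL-33 libraries all lay above its Control libraries, as they did in 4.54% of all tested genes. It did not pass, with an adjusted p of 0.999 (edgeR quasi-likelihood test, Benjamini-Hochberg). Epithelial markers summed to 594 to 642 CPM with IL-33 and 594 to 731 CPM in Control, with KRT18 at 628 CPM and KRT5 and KRT14 at 0. Astrocyte, oligodendrocyte and endothelial markers summed to at most 7.35 CPM in every library. The gene of the cytokine, IL33, had 0 counts, and its receptor gene IL1RL1 had 8 counts in IL-33 2, 3 in Control 3 and 0 elsewhere. The accessory receptor gene IL1RAP averaged 5.37 ± 2.45 CPM with IL-33 and 6.23 ± 0.905 CPM in Control (SD, n = 3 each), a log2 fold change of -0.23 ± 0.39 (SE).

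The levels of the tested guidance genes spanned a wide range, from a mean of 1.31 CPM for NRP2 to 133 CPM for PLXNB2, with a median of 9.08 CPM against 23.3 CPM for all tested genes. The 18 genes with a mean of 10 CPM or more hold 3 Eph receptors, 6 ephrins, 4 semaphorins, 4 plexins and 1 neuropilin. Summed over all 53, the level was 677, 694 and 750.2 CPM in IL-33 1, 2 and 3 and 668, 691 and 673 CPM in Control 1, 2 and 3, and the genes took between 0.0648% and 0.0767% of a library's counts. IL-33 3 was thus the highest and the other libraries lay close together. PLXNB2 stood clear of the rest, since its lowest library (123 CPM) lay above the highest library of any other member (EFNB2 at 83.2 CPM in Control 3). EFNA5, EFNB2 and EPHB4, next in order, overlapped in their libraries and could not be ranked.

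**Figure D1:**
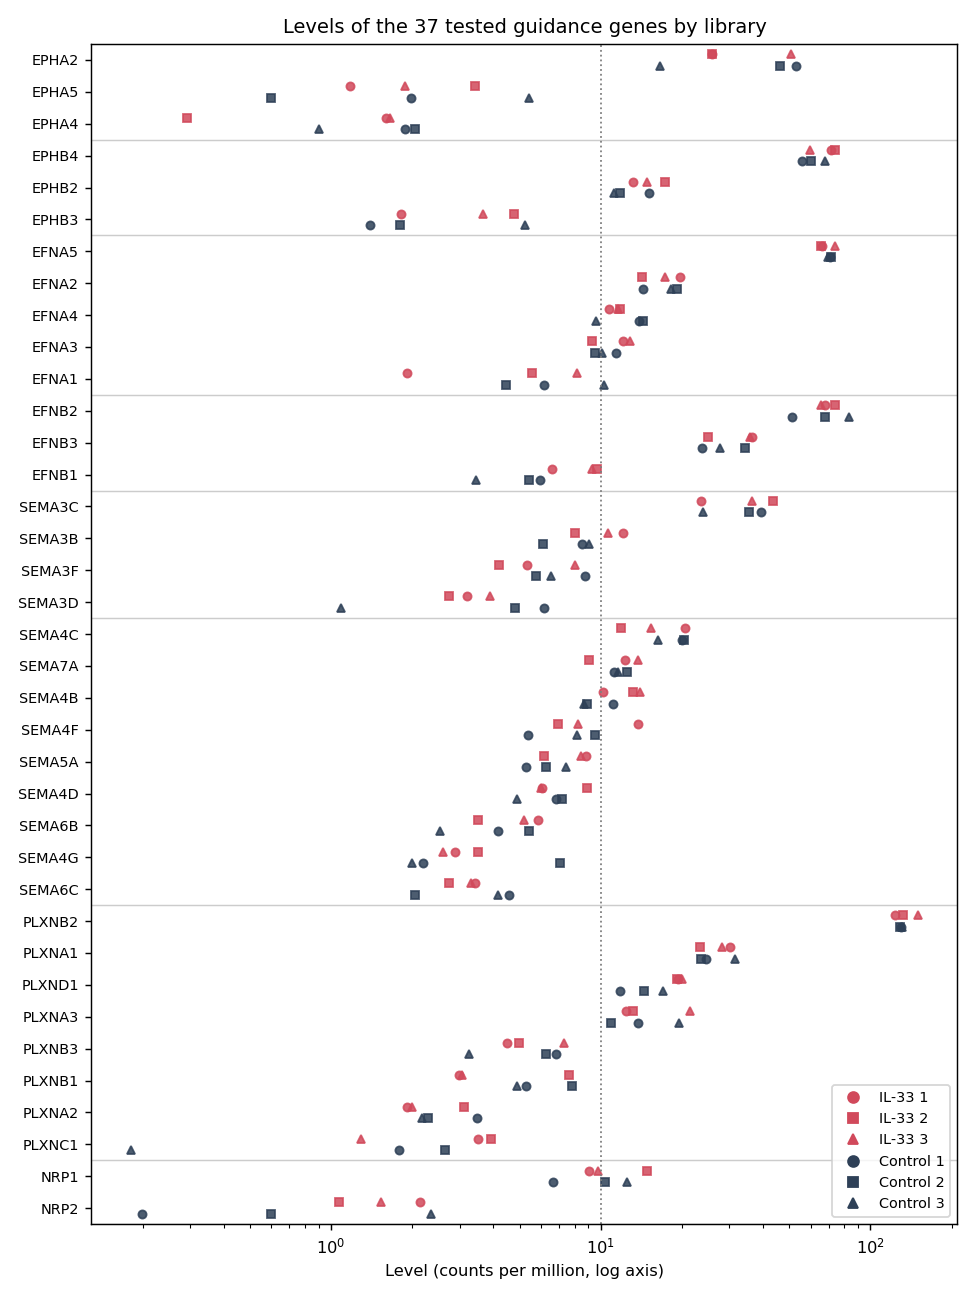
Level of each tested guidance gene in each library, in CPM on a log axis. IL-33 libraries are red and drawn above the dark Control libraries of the same gene, with a symbol for each replicate number, and the dotted line marks 10 CPM. PLXNB2 lies furthest right, at 123 CPM or more in every library, and the red and dark points mix in nearly every row.

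Promoter sequence was compared for what the symbols do not fix. RefSeq (GRCh38.p14) gave the 300 bases around the annotated start, 250 before and 50 after it, for 47 of the 53 genes. EPHA10, EFNB3, SEMA3A, SEMA6A, SEMA6B and NRP1 had no entry. These windows held a median of 23 CpG dinucleotides, against 14 in all 35116 RefSeq promoters, with 27 in the 34 tested genes and 17 in the 13 untested ones. The GC box GGGCGG, read on either strand, was found in 38 of 47 windows (80.9%), in 31 of 34 tested genes (91.2%), in 7 of 13 untested genes (53.8%) and in 45.0% of all promoters. The CCAAT box was found on either strand in 17 (36.2%; all promoters 34.6%), and TATAAA in 1, that of EFNB2 (2.13%; all promoters 11.5%). All promoters were not limited to expressed genes and were not reduced to 1 per gene, as the guidance genes were. Whether the tested guidance genes differ in this from other expressed genes was not tested. The 5 windows printed here are chosen examples, from a ligand and receptor pair at moderate levels to a gene with 0 counts. They are not typical of the 47. Over the 300 bases SEMA3C had the fewest CpG of all (2), and EPHA8 had 51, where the highest count was 54. For SEMA3C and EPHA8, the bases checked after the RefSeq start were not found in the gene's GENCODE transcripts. Each line is the 150 bases before the RefSeq start, 5' to 3' on the gene's strand, with every CpG in capitals.
EFNB2: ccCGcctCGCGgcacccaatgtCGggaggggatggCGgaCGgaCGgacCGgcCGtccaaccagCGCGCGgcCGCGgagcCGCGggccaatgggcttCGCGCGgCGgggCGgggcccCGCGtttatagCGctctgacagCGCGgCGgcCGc
EPHB4: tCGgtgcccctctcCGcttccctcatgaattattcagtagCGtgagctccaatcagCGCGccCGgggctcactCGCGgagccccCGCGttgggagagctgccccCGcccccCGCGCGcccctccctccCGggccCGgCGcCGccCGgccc
EPHA2: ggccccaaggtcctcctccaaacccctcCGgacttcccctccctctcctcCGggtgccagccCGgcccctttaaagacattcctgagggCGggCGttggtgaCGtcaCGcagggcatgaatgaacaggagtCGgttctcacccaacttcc
SEMA3C: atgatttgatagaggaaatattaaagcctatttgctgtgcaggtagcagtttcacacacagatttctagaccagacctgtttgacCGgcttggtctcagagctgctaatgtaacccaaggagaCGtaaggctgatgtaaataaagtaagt
EPHA8: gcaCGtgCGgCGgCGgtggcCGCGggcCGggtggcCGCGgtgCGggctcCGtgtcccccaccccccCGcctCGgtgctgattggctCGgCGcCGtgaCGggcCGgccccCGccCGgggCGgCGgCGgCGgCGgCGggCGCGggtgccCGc
They lie at chr13:106535663-106535812 (EFNB2, minus strand), chr7:100827524-100827673 (EPHB4, minus), chr1:16156070-16156219 (EPHA2, minus), chr7:80922390-80922539 (SEMA3C, minus) and chr1:22563339-22563488 (EPHA8, plus). The stretch of EFNB2 holds 28 CpG dinucleotides, a GC box, CCAAT and the TATAAA letters on the opposite strand (tttata). EPHB4 has 19 with 2 GC boxes and CCAAT, and EPHA2 has 8 with 1 GC box. SEMA3C, the most abundant class 3 semaphorin here, has 2 and none of the 3 motifs in these 150 bases, while its window of 300 bases holds CCAAT. EPHA8 has 29 with 2 GC boxes and CCAAT and had 0 counts in all libraries. Which start HMC3 uses is not known from 3' tags, and a match of letters is a description of the sequence, not a bound site.

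Among the EphA receptors, 3 of 9 could be tested and a single gene, EPHA2, carried nearly the whole level. EPHA2 (chromosome 1, 16124337 to 16156087, GRCh38), a receptor to which ephrin-A1 binds, measured 25.9, 25.9 and 50.7 CPM in IL-33 1, 2 and 3, and 53.0, 46.2 and 16.6 CPM in Control 1, 2 and 3. The IL-33 libraries all lay inside the Control range: IL-33 3 lay between Controls 1 and 2, and Control 3 was the lowest of all. The means were 34.2 ± 14.3 CPM with IL-33 and 38.6 ± 19.3 CPM in Control (SD, n = 3 each), with a log2 fold change of -0.20 ± 0.51 (SE) and a 95% interval from -1.48 to 1.08. Its highest library was 3.19 times its lowest, and its SD within groups of 0.75 on the log2 scale was exceeded in 59 of the 8331 genes at 10 CPM or more (0.708%). EPHA2 was chosen for this detail after its values were seen. Control 3 read 0.336 of the mean of Controls 1 and 2. Without Control 3 the log2 fold change of EPHA2 was -0.55, with an unadjusted p of 0.0428 and an adjusted p of 0.761 (edgeR quasi-likelihood test, Benjamini-Hochberg), while without IL-33 3 it was -0.59, and without Control 1 it was 0.10. Control 3 also had the lowest depth and stood apart over all genes, and the part of this in the level of EPHA2 was not tested. In bulk RNA fewer cells with a transcript and less of it per cell cannot be told apart.

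The other EphA receptor genes were low. EPHA5 lay between 1.17 and 3.42 CPM with IL-33 and between 0.601 and 5.43 CPM in Control. EPHA4, a receptor that binds both ephrin classes, lay between 0.293 and 1.65 CPM with IL-33 and between 0.905 and 2.04 CPM in Control. Both ranges overlapped. EPHA6 had 0 counts in all IL-33 libraries, and 8, 3 and 0 counts in Control 1, 2 and 3. EPHA1 had 11 counts in all, EPHA10, which lacks kinase activity, 4 and EPHA7 3. EPHA1 overlaps ZYX on the opposite strand, with 29356 counts, by their whole gene spans. The strand setting of the counting is not stated, so how far reads of such pairs were kept apart is not known.

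EphB receptor genes were carried by EPHB4, and all 3 tested genes had a log2 fold change above 0 with none passing. EPHB4 (chromosome 7, 100802565 to 100827521), the receptor that prefers ephrin-B2, measured 71.4, 74.2 and 59.8 CPM in IL-33 1, 2 and 3, and 55.7, 60.1 and 68.0 CPM in Control 1, 2 and 3. IL-33 3 lay below Controls 2 and 3, so the groups overlapped. The means were 68.5 ± 7.66 CPM with IL-33 and 61.3 ± 6.25 CPM in Control (SD, n = 3 each), a log2 fold change of 0.16 ± 0.14 (SE) with a 95% interval from -0.12 to 0.45 and an adjusted p of 0.999 (edgeR quasi-likelihood test, Benjamini-Hochberg). It overlaps SLC12A9 on the opposite strand, which had 987 counts. EPHB2, another receptor of ephrin-B ligands, measured 13.2, 17.3 and 14.9 CPM with IL-33, against 15.1, 11.8 and 11.2 CPM in Control. Here Control 1 lay among the IL-33 libraries, and the log2 fold change was 0.24 ± 0.24. EPHB3 averaged 3.42 CPM with IL-33 and 2.81 CPM in Control. EPHB1 had 4 counts in all, and EPHB6, which like EPHA10 lacks kinase activity, had 3.

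The balance of both leading receptors differed between libraries of the same group. EPHB4 and EPHA2 together made up 84.3%, 79.5% and 83.0% of the summed Eph receptor level in IL-33 1, 2 and 3, and 83.0%, 86.1% and 78.8% in Control 1, 2 and 3. EPHB4 was 2.76, 2.87 and 1.18 times EPHA2 with IL-33, against 1.05, 1.30 and 4.09 times in Control. The ratio was therefore lowest in IL-33 3 and Controls 1 and 2, and highest in Control 3, which crosses the groups.

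**Figure D2:**
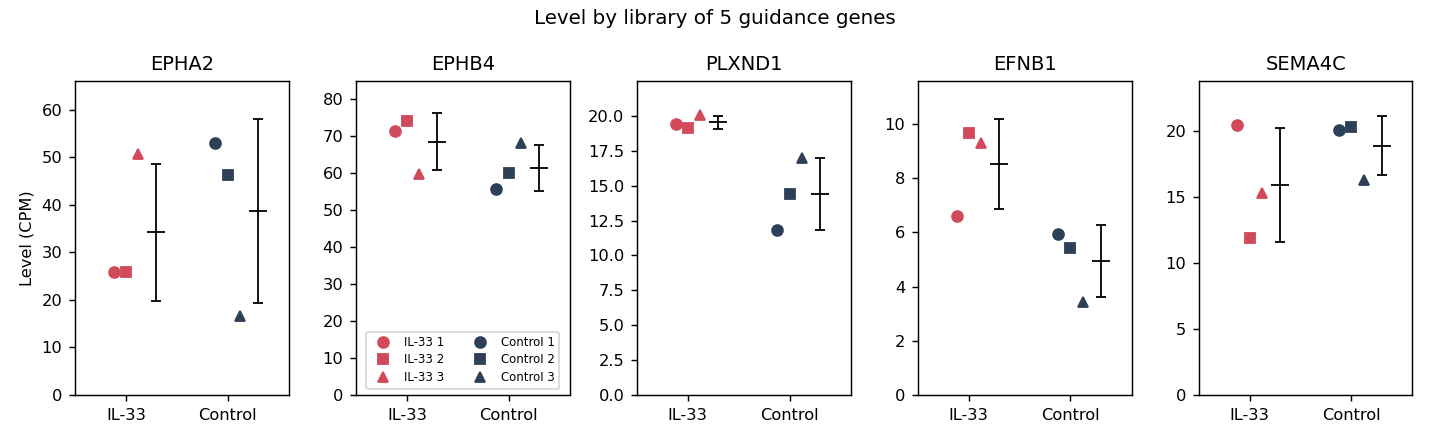
Level in CPM of EPHA2, EPHB4, PLXND1, EFNB1 and SEMA4C in each library, IL-33 on the left and Control on the right of each panel. The line with bars is the mean ± SD (n = 3). The IL-33 points of EPHA2 lie inside the Control range, with Control 3 lowest, while the IL-33 points of PLXND1 (19.1 to 20.0 CPM) and EFNB1 (6.61 to 9.67 CPM) all lie above the Control points.

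All 5 ephrin-A ligand genes were tested, 4 of them at 10 CPM or more, and 1 had a log2 fold change above 0. EFNA5 (chromosome 5, 107376889 to 107670895), a ligand of EphA receptors, measured 66.0, 65.6 and 73.8 CPM in IL-33 1, 2 and 3, and 71.1, 71.5 and 69.7 CPM in Control 1, 2 and 3. It was among the steadiest genes measured, with an SD within groups of 0.07 on the log2 scale that 95% of genes at 10 CPM or more exceeded. The means were 68.5 ± 4.62 CPM with IL-33 and 70.8 ± 0.976 CPM in Control (SD, n = 3 each), a log2 fold change of -0.05 ± 0.12 (SE) with a 95% interval from -0.31 to 0.21 and an adjusted p of 0.999 (edgeR quasi-likelihood test, Benjamini-Hochberg).

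The lower ephrin-A genes overlapped between groups in every case. EFNA2 measured 19.7, 14.3 and 17.3 CPM with IL-33, against 14.4, 19.1 and 18.3 CPM in Control. EFNA4 measured 10.8, 11.8 and 11.6 CPM with IL-33, against 13.9, 14.3 and 9.59 CPM in Control. All these genes encode lipid-anchored ligands, and in EFNA4 Control 3 lay below the IL-33 libraries while Controls 1 and 2 lay above. Its log2 fold change was -0.16 ± 0.26, with an adjusted p of 0.999 (edgeR quasi-likelihood test, Benjamini-Hochberg), and with a library left out it ran from -0.31 to -0.06. EFNA3 measured 12.1, 9.28 and 12.8 CPM with IL-33, against 11.4, 9.50 and 10.1 CPM in Control. EFNA1, a ligand of EPHA2, lay between 1.92 and 8.13 CPM with IL-33 and between 4.45 and 10.3 CPM in Control. EFNA4, EFNA3 and EFNA1 stand in a row on chromosome 1 with gaps of 9.3 kb and 39.9 kb. EFNA4 and EFNA3 also share an annotated readthrough gene on the same strand that the table does not list, so counts at this pair are uncertain.

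Ephrin-B ligand genes were all tested, 3 of 3 had a log2 fold change above 0, and none passed. EFNB2 (chromosome 13, 106489731 to 106535662), the ligand of EPHB4, measured 67.9, 74.0 and 65.7 CPM in IL-33 1, 2 and 3, and 51.3, 67.9 and 83.2 CPM in Control 1, 2 and 3. The IL-33 libraries lay inside the wider range of Control, with a log2 fold change of 0.04 ± 0.15. Ligand and receptor were thus at like levels in HMC3, with group means of 69.2 and 68.5 CPM for EFNB2 and EPHB4 with IL-33 and of 67.5 and 61.3 CPM in Control. EFNB3 measured 36.6, 24.9 and 35.7 CPM with IL-33, against 23.8, 34.1 and 27.7 CPM in Control. IL-33 2 lay among the Control libraries here.

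EFNB1, the third ephrin-B gene (chromosome X, 68828997 to 68842147), is described because of its values and lay under 10 CPM. It measured 6.61, 9.67 and 9.31 CPM in IL-33 1, 2 and 3, and 5.96, 5.41 and 3.44 CPM in Control 1, 2 and 3. All IL-33 libraries lay above all Control libraries, with the closest pair 6.61 CPM in IL-33 1 and 5.96 CPM in Control 1. The means were 8.53 ± 1.67 CPM with IL-33 and 4.94 ± 1.33 CPM in Control (SD, n = 3 each), a log2 fold change of 0.77 ± 0.35 (SE) with a 95% interval from 0.04 to 1.5. The unadjusted p was 0.0399 and the adjusted p 0.999 (edgeR quasi-likelihood test, Benjamini-Hochberg). It was the sole guidance gene with an unadjusted p under 0.05, 1 of 37 in the higher direction, where 1.45% of all tested genes were that far, and 0 of 37 in the lower direction, where 0.981% were. Without Control 3 its log2 fold change was 0.58 with an unadjusted p of 0.114 by the same test. That p also lay above 0.05 without IL-33 2 (0.117), IL-33 3 (0.104) or Control 2 (0.0552). It lay under 0.05 without IL-33 1 (0.0283) or Control 1 (0.0351).

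Of the 7 class 3 semaphorin genes, 4 were tested, 2 of them above 0 and 2 below. SEMA3C (chromosome 7, 80742538 to 80922359), a secreted ligand that acts through neuropilins, measured 23.6, 43.7 and 36.4 CPM in IL-33 1, 2 and 3, and 39.4, 35.3 and 23.9 CPM in Control 1, 2 and 3. A low library stood in each group, IL-33 1 and Control 3, and the log2 fold change was 0.06 ± 0.23. It made up 52.4% to 70.5% of the summed class 3 level in the 6 libraries. SEMA3B lay between 8.01 and 12.1 CPM with IL-33 and between 6.13 and 9.05 CPM in Control. SEMA3F, its neighbour on chromosome 3 at a gap of 78.5 kb, lay between 4.20 and 8.02 CPM with IL-33 and between 5.77 and 8.74 CPM in Control. Both genes encode ligands that act through neuropilins, and their ranges overlapped between the groups. SEMA3D lay between 2.73 and 3.89 CPM with IL-33 and between 1.09 and 6.16 CPM in Control. SEMA3A, the best known axon repellent of the class, had 9 counts in all. SEMA3E, which binds PLXND1 without a neuropilin, had 29 counts, 21 of them in IL-33 2, and SEMA3G had 16, with 13 in IL-33 2. These counts were too few to test.

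Membrane semaphorin genes numbered 13, of which 9 were tested, 5 above 0 and 4 below, and none passed. SEMA4C (chromosome 2, 96859716 to 96870757), a ligand of plexin-B2, measured 20.5, 11.9 and 15.3 CPM in IL-33 1, 2 and 3, and 20.1, 20.3 and 16.3 CPM in Control 1, 2 and 3. IL-33 1 was the highest library and IL-33 2 the lowest, so the groups overlapped. The means were 15.9 ± 4.30 CPM with IL-33 and 18.9 ± 2.26 CPM in Control (SD, n = 3 each), a log2 fold change of -0.25 ± 0.24 (SE) with a 95% interval from -0.75 to 0.24 and an adjusted p of 0.999 (edgeR quasi-likelihood test, Benjamini-Hochberg). With a library left out it ran from -0.48 without IL-33 1 to -0.08 without IL-33 2.

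SEMA4B (chromosome 15, 90160604 to 90229679), another class 4 transmembrane semaphorin, measured 10.2, 13.2 and 14.0 CPM in IL-33 1, 2 and 3, and 11.1, 8.90 and 8.69 CPM in Control 1, 2 and 3. Control 1 lay above IL-33 1 and the other libraries were apart. The log2 fold change was 0.38 ± 0.27 (SE) with a 95% interval from -0.19 to 0.94 and an adjusted p of 0.999 by the same test and adjustment. SEMA7A, whose product is held by a lipid anchor and binds plexin-C1 and integrins, measured 12.3, 9.08 and 13.8 CPM with IL-33, against 11.2, 12.5 and 11.6 CPM in Control, and the groups overlapped. SEMA4D, the ligand of plexin-B1, lay between 6.01 and 8.89 CPM with IL-33 and between 4.89 and 7.21 CPM in Control. SEMA4F, SEMA5A, SEMA6B, SEMA4G and SEMA6C averaged 8.66, 7.07, 4.45, 3.38 and 3.37 CPM over all libraries, and their groups overlapped. Among the untested genes SEMA6A had 0, 7 and 6 counts with IL-33 and 0 in every Control library, SEMA6D had 31 counts, SEMA4A 14 and SEMA5B 8. SEMA4G overlaps MRPL43 on the opposite strand, with 5290 counts.

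Of the 9 plexin genes 8 were tested, 6 above 0 and 2 below, and none passed. PLXNB2 (chromosome 22, 50274979 to 50307627), a receptor of class 4 semaphorins such as SEMA4C, measured 123, 132 and 150.3 CPM in IL-33 1, 2 and 3, and 129.9, 129 and 131 CPM in Control 1, 2 and 3. The Control libraries lay close together inside the IL-33 range, with a log2 fold change of 0.06 ± 0.11 and a 95% interval from -0.17 to 0.28. It made up 62.3% to 65.8% of the summed plexin level in the 6 libraries. PLXNA1, a signalling partner of neuropilins for class 3 semaphorins, measured 30.1, 23.3 and 28.3 CPM with IL-33, against 24.6, 23.6 and 31.5 CPM in Control. PLXNA3, with the same role, measured 12.4, 13.2 and 21.5 CPM with IL-33, against 13.7, 10.9 and 19.5 CPM in Control. In both genes the groups overlapped, and PLXNA3 overlaps LAGE3 on the opposite strand with 1748 counts.

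PLXND1 (chromosome 3, 129555175 to 129606818), a receptor best known from blood vessels and bound by SEMA3E, was the guidance gene of 10 CPM or more with the smallest p. It measured 19.4, 19.1 and 20.0 CPM in IL-33 1, 2 and 3, and 11.8, 14.4 and 17.0 CPM in Control 1, 2 and 3. All IL-33 libraries lay above all Control libraries, and the spread was in Control. The means were 19.5 ± 0.464 CPM with IL-33 and 14.4 ± 2.60 CPM in Control (SD, n = 3 each), a log2 fold change of 0.45 ± 0.22 (SE) with a 95% interval from -0.02 to 0.91. The unadjusted p was 0.0586 and the adjusted p 0.999 (edgeR quasi-likelihood test, Benjamini-Hochberg). With a library left out the log2 fold change ran from 0.32 without Control 1 to 0.57 without Control 3, and in that last fit the adjusted p was 0.704. With EFNB1, PLXND1 was 1 of 2 tested guidance genes of 37 whose IL-33 libraries all lay higher, against 4.54% of all tested genes, and 0 of 37 had all IL-33 libraries lower, against 3.51%.

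The remaining plexin and neuropilin genes were low. PLXNB3 and PLXNA2 averaged 5.52 and 2.50 CPM over all libraries, and PLXNB1 lay between 2.98 and 7.62 CPM with IL-33 and between 4.89 and 7.81 CPM in Control. PLXNC1, the receptor of SEMA7A, lay between 1.30 and 3.91 CPM with IL-33 and between 0.181 and 2.65 CPM in Control. Its log2 fold change of 0.86 ± 0.70 was the highest of the 37. The 0.181 CPM was 1 count in Control 3, the library with the fewest counts, where Controls 1 and 2 held 18 and 22. PLXNC1 overlaps CEP83 on the opposite strand, with 910 counts. PLXNA4 had 5 counts, all in Control 2. NRP1, the neuropilin that SEMA3A and vascular growth factors bind, measured 9.06, 14.8 and 9.78 CPM with IL-33, against 6.65, 10.3 and 12.5 CPM in Control, and the groups overlapped. NRP2 lay between 1.07 and 2.13 CPM with IL-33 and between 0.199 and 2.35 CPM in Control.

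**Figure D3:**
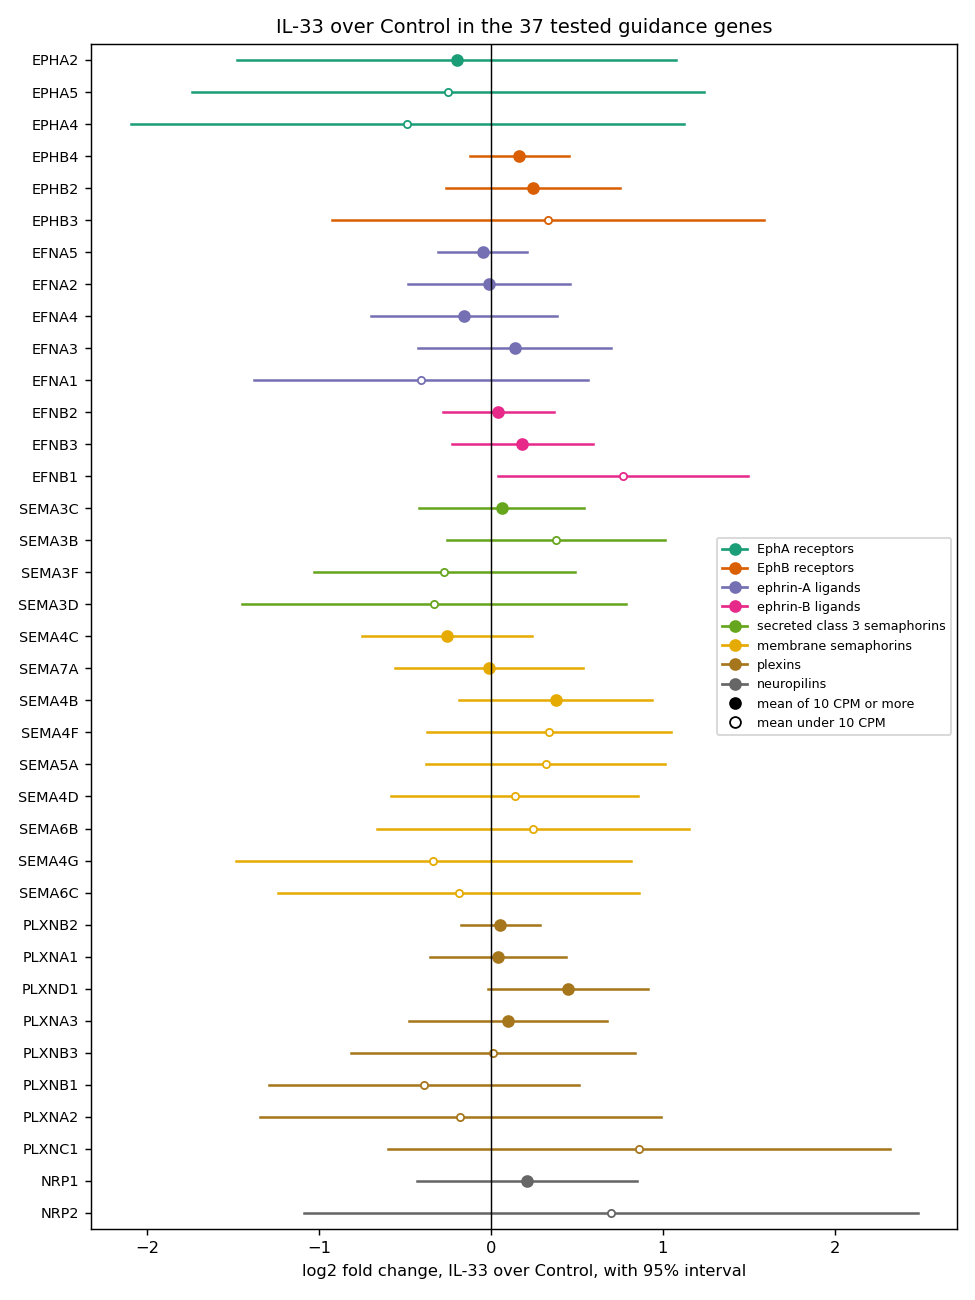
Log2 fold change, IL-33 over Control, of the 37 tested guidance genes with the 95% interval of edgeR's quasi-likelihood fit, coloured by family. Filled points have a mean of 10 CPM or more and open points a lower one. The intervals of 36 genes include 0, and EFNB1 is the exception, from 0.04 to 1.5.

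Family by family, the summed levels of the groups overlapped throughout. EphB receptors summed to 86.7, 96.3 and 78.3 CPM in IL-33 1, 2 and 3, and 72.3, 74.1 and 84.5 CPM in Control 1, 2 and 3. Ephrin-B ligands summed to 111, 109 and 111 CPM with IL-33, against 81.1, 107 and 114 CPM in Control. In both, Control 3 lay inside or above the IL-33 range. Plexins summed to 198, 207 and 234 CPM with IL-33, against 197, 198 and 209.9 CPM in Control, with IL-33 3 highest. EphA receptors summed to 28.7, 29.6 and 54.8 CPM with IL-33, against 58.8, 49.4 and 23.0 CPM in Control, which follows EPHA2. For the other families the ranges overlapped between groups: ephrin-A ligands reached 107 to 124 CPM with IL-33 and 117 to 119 CPM in Control, class 3 semaphorins 45.0 to 61.9 CPM with IL-33 and 41.6 to 63.1 CPM in Control, and membrane semaphorins 67.6 to 85.8 CPM with IL-33 and 66.4 to 80.3 CPM in Control. Neuropilins reached 11.2 to 15.9 CPM with IL-33 and 6.85 to 14.8 CPM in Control.

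**Figure D4:**
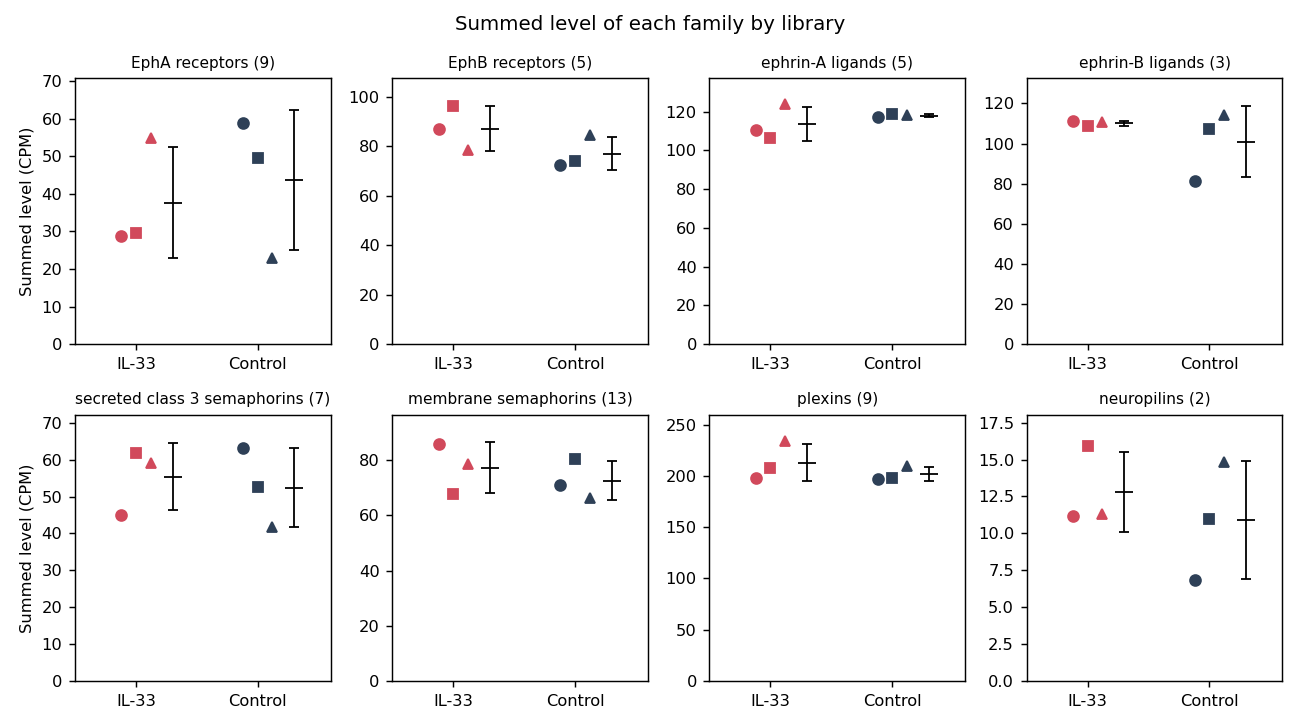
Summed level of each family in CPM, per library, with IL-33 on the left and Control on the right of each panel and the number of genes in brackets. The line with bars is the mean ± SD (n = 3), and circles, squares and triangles are replicates 1, 2 and 3. In every panel at least 1 library of a group lies inside the range of the other group.

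Across the 37 tested genes, 22 had a log2 fold change above 0 and 15 below, with a median of 0.06 against -0.01 for all tested genes and a range from -0.49 to 0.86. The median within-group SD was 0.35 on the log2 scale against 0.24 for all tested genes, and 0.22 against 0.19 at 10 CPM or more. The 95% interval lay within -1 to 1 for 19 of the 37 (51.4%, against 73.4% of all tested genes), and for 17 of the 18 at 10 CPM or more (94.4%, against 96.9% of genes at that level). EPHA2 was the exception among the 18. A change of the size of a doubling thus lay outside the interval for most of the better measured guidance genes and inside it for many of the low ones.

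Libraries also differed over the family as a whole. The median deviation of the 37 genes from their own mean, on a log2(CPM + 0.5) scale, was -0.03, -0.05 and 0.18 in IL-33 1, 2 and 3, and -0.02, 0.01 and -0.02 in Control 1, 2 and 3. IL-33 3 was the highest library in 8 of the 37 genes and the lowest in 0, where over all tested genes it was highest in 1707 and lowest in 1660 of 12125. Control 3 lay outside the range of the other libraries in 17 of the 37 (45.9%), 11 as lowest and 6 as highest, against 53.2% of all tested genes.

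Genes of the same and neighbouring pathways were measured beside the family. Of 87 listed genes, 60 were tested, 50 of them at 10 CPM or more, and 0 passed in either direction, with 26 above 0, 34 below and a median log2 fold change of -0.04. At an unadjusted p under 0.05 there were 0 higher and 2 lower, against the shares of 1.45% and 0.981% given above for all genes. Of the effectors and coreceptors of plexins, 27 of 30 were tested, 13 above 0 and 14 below, with a median of 0.00. SH3BP1, a GTPase-activating protein for Rac, averaged 37.4 ± 4.72 CPM with IL-33 and 47.5 ± 9.02 CPM in Control (SD, n = 3 each), a log2 fold change of -0.34 ± 0.17 (SE) that was -0.18 without Control 3. Its groups overlapped and it did not pass. The semaphorin signalling mediator DPYSL2 was measured closely, at 172 CPM in the mean of each group, and its 95% interval ran from -0.23 to 0.22.

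Of the effectors and processing enzymes of Eph-ephrin signalling, 26 of 32 were tested, 10 above 0 and 16 below, with a median of -0.04. YES1, a kinase of the Src family, averaged 14.1 ± 1.41 CPM with IL-33 and 19.9 ± 1.31 CPM in Control (SD, n = 3 each), a log2 fold change of -0.50 ± 0.22 (SE) with groups that did not overlap. TIAM1, an exchange factor for Rac, averaged 45.3 ± 2.80 CPM with IL-33 and 38.5 ± 2.21 CPM in Control, a log2 fold change of 0.23 ± 0.15, likewise without overlap. Of the 60 tested genes of all lists, 1 lay higher and 2 lower without overlap, against 4.54% and 3.51% of all tested genes. ADAM10, a protease that cleaves ephrins, averaged 45.2 ± 2.50 CPM with IL-33 and 41.0 ± 5.66 CPM in Control. None of these passed, and the adjusted p was 0.999 for each (edgeR quasi-likelihood test, Benjamini-Hochberg).

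The neighbouring guidance systems were sparse. Of 10 Slit, Robo and SRGAP genes 4 were tested (ROBO1, ROBO3, SRGAP1 and SRGAP2), 3 above 0. ROBO3, a Robo receptor, averaged 28.1 ± 5.76 CPM with IL-33 and 22.9 ± 1.09 CPM in Control (log2 fold change 0.29 ± 0.19). SRGAP2, a GTPase-activating protein that binds Robo receptors, averaged 24.7 ± 2.43 CPM with IL-33 and 27.9 ± 4.62 CPM in Control (-0.17 ± 0.19). Of 15 netrin and repulsive guidance genes 3 were tested, all below 0. RGMB, a coreceptor of bone morphogenetic proteins, averaged 48.8 ± 5.88 CPM with IL-33 and 60.3 ± 11.4 CPM in Control (-0.31 ± 0.16), and NEO1, the receptor of these ligands, 24.6 ± 2.91 CPM with IL-33 and 28.8 ± 3.87 CPM in Control (-0.22 ± 0.19). The netrin receptor genes DCC, UNC5B and UNC5D and the Slit receptor gene ROBO2 had 0 counts.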

How the data were processed

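The authors deposited read counts in whole numbers, by gene symbol and library, made per the labels' protocols from TRIZOL-extracted RNA with the QuantSeq 3' FWD kit. Per the submitters' processing notes, the tools included STAR 2.7.5a, HTSeq 0.6.1 and edgeR, and the build was hg38; no roles are given. The annotation and the strand setting are not stated in the sources used here. 3' tags outside an annotated gene end are not counted.

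Of 27470 rows, 1 held no values and was left out. In R 4.3.3, genes were filtered with filterByExpr in edgeR 4.0.16 (minimum count 10, minimum total 15), which left 12125 with 99.9% of the counts. After TMM scaling, IL-33 and Control were compared over all genes by the robust quasi-likelihood test, with Benjamini-Hochberg adjustment at 0.05. The procedure was checked on simulated counts with 200 changed genes. Alternatives were DESeq2 1.42.0, limma-voom (limma 3.58.1), other scalings and filters, an adjusted p of 0.1, a replicate block and each library left out. Intervals cover counting and replicate error of these libraries only.

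Positions are from GENCODE release 29 (GRCh38), promoters from RefSeq, matched by symbol. The rule for named genes gave values per library at a mean of 10 CPM or more, and full statistics to the 3 smallest p in each direction among these, to those whose groups did not overlap, and to 2 genes of each pathway list. EPHA2 and EFNB1 were given full statistics after their values were seen, and DPYSL2 and ADAM10 were also added outside the rule. A result under this rule is not reported here. The guidance genes and the lists were chosen with earlier results of these data known. GRB4 was the listed pathway gene without a match.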

Additional observations from a re-analysis of the deposited data

How the results depend on the processing

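The count of 0 guidance genes called was the same under all 14 alternatives, as was that of 0 other guidance-pathway genes. Over all genes, where 0 were called, 3 were called without the low-count filter, 1 with DESeq2, and 0 to 6 with a library left out, the 6 without Control 3. With a library left out, the median log2 fold change of the tested guidance genes ran from 0.01 to 0.08. EPHA2 turned its direction once, to 0.10 without Control 1, in a range from -0.59 to 0.10. At an unadjusted p under 0.05 there were at most 2 guidance genes under any alternative. These were 2 of 51 (3.92%) without the low-count filter, against 2.87% of all genes in that fit, and 2 of 37 (5.41%) without Control 3, EPHA2 and PLXND1, against 6.30% of all genes. The log2 fold change of EFNB1 ran from 0.58 to 0.93 and that of SEMA4B from 0.29 to 0.50. The labels do not say that replicate numbers pair the libraries, and deviations of same-numbered libraries correlated at -0.09, 0.03 and -0.14. With the replicate number as a block, 0 guidance genes and 0 of all genes were called, and the median was 0.05. Depth limits the low members: under about 10 CPM most intervals exceed a doubling, and a gene at 0 counts may lie as high as 0.543 CPM in Control 3.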
